A study of Mus musculus with 6 samples.

Results

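Binding of the transcription factor Tcf1 was compared with the histone mark H3K4me3 inside one cell population, natural killer (NK) cells with an intact Tcf7 gene (WT). The members were the 866 distinct peaks (regions of enriched DNA) of the WT Tcf1 chromatin immunoprecipitation (ChIP), out of 30850 peaks in the 4 antibody libraries, and each was placed on the 13771 distinct peaks of the WT H3K4me3 ChIP. A Tcf1 peak was inside when it shared at least 1 bp with an H3K4me3 peak, at the edge when the gap to the nearest one was at most 5 kb, and far otherwise. A Tcf1 peak that overlapped 1 of the 5139 peaks made by the same antibody in Tcf7-/- cells (KO) was counted as background, since the genotype label means no functional Tcf7 gene. Loss of the Tcf1 protein was not measured in these files.

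The study used splenic NK cells of B6 mice with genotype Tcf7+/+ (WT) and of B6.129 mice homozygous for the Tcf7Tm1Cle allele, Tcf7-/- (KO). Cells of both genotypes were grown for 5 days in 500 ng/mL of the NK-activating cytokine IL-2, so the peaks describe cultured, activated cells. For each genotype there was 1 input, 1 Tcf1 and 1 H3K4me3 library. Because every group was 1 library, replicate error is unknown and nothing was tested for significance. The 95% Wilson intervals describe counting error, not biological spread. Genotype and strain background cannot be told apart.

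Tcf1, the product of Tcf7, belongs to the Tcf/Lef family of DNA-binding proteins, which sit at Wnt target genes with corepressors of the Groucho/TLE family or with the coactivator beta-catenin. It is needed for the early development of NK and T cells. H3K4me3, trimethylation of lysine 4 on histone H3, lies over the start sites of genes that are transcribed or poised, mostly just downstream of the transcription start site (TSS), whereas enhancers carry little of it.

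The depth of the libraries is unknown here, since tags (sequenced reads counted in a peak) are given for called peaks alone. The WT lists held 74849 tags in Tcf1 peaks and 6635272 tags in H3K4me3 peaks, and the KO lists held 129810 and 7507763. H3K4me3 was present within 1 kb of the TSS at 12 of 12 NK marker genes (59 to 3023 tags), beside 53.6% of all protein-coding genes. It was present at 2 of 8 T cell markers (Cd3d with 35 tags and Cd3e with 64) and at 0 of 7 B cell markers. Also marked were 2 of 7 myeloid markers (Cd14 with 95 tags and Cebpa with 113) and 2 of 6 erythroid markers (Klf1 with 264 and Epor with 56). The score of a peak is the authors' value (the p-value of the peak calling as a negative log10, multiplied by 10) and is used here to describe and rank peaks within a list.

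Promoters where Tcf1 and H3K4me3 met are shown first, because the sequence under the antibody signal is what a DNA-binding factor reads. The RefSeq promoter table (GRCm38.p6, 250 bases before to 50 after each start, both strands searched) held 15 promoters covered over at least 150 bp by a Tcf1 peak called in WT alone. Each was searched for CTTTGAA and CTTTGAT, the core letters of the Tcf/Lef motif, and the 5 windows below are written from 5′ to 3′ on the strand of the gene, with a match in capitals. Axin2 and Cyb5r4 had the highest Tcf1 scores among promoters in H3K4me3. The other 3 windows hold a match, and Kmt2d, which encodes an H3K4 methyltransferase, was chosen for display after its values were seen.

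Axin2 (chr11:108920099-108920398, plus strand): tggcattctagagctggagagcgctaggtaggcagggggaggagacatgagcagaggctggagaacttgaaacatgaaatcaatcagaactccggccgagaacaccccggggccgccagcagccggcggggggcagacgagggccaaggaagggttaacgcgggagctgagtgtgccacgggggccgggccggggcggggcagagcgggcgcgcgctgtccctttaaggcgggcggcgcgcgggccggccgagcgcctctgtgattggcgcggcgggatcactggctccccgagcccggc
Cyb5r4 (chr9:87021779-87022078, plus strand): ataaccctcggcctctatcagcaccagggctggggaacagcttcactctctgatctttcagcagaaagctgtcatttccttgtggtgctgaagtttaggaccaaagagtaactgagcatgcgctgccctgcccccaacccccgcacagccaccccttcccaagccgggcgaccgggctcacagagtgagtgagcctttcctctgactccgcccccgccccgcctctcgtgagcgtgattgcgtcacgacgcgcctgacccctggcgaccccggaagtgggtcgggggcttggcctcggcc
1190007I07Rik (chr10:82623179-82623478, minus strand): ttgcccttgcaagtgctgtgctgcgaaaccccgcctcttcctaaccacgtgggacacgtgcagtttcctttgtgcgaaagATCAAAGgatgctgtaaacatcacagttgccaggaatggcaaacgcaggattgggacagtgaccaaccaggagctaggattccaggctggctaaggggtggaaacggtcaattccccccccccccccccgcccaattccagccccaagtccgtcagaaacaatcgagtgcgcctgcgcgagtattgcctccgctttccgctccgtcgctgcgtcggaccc
Zfp142 (chr1:74587979-74588278, minus strand): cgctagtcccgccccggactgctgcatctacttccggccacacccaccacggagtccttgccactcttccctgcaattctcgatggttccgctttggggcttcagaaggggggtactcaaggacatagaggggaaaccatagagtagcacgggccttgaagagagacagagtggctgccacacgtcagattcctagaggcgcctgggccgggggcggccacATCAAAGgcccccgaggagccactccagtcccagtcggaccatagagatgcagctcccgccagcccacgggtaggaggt
Kmt2d (chr15:98871156-98871455, minus strand): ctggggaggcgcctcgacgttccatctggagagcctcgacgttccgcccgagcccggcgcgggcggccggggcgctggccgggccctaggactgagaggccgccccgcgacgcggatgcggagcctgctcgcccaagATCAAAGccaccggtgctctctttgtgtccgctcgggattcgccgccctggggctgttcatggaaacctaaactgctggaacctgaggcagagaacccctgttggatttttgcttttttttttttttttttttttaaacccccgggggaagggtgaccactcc

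The motif stood in 5 of these 15 windows (33.3%, interval 15.2 to 58.3%), against 7.57% of all 21263 windows in the table. They were those of 1190007I07Rik, Zfp142, Bcs1l, Kmt2d and Sp9, and the first 4 were among the 11 windows whose Tcf1 peak lay inside H3K4me3. Zfp142 and Bcs1l are transcribed in opposite directions from 1 region under 1 Tcf1 peak, and the same bases make the match in both. Windows inside WT H3K4me3 peaks held the motif in 5.19% of cases, and windows outside them in 10.1%. Of 48 windows covered by a Tcf1 peak called in KO alone, 7 held it (14.6%, interval 7.25 to 27.2%), so the intervals of the WT and KO sets overlap. The windows of Axin2, Cyb5r4, Tcf7 and Ism2 held no match, which says only that these letters are not in those 300 bases.

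Most Tcf1 peaks called in WT alone lay away from H3K4me3. Of 751 such peaks, 37 were inside an H3K4me3 peak (4.93%, interval 3.60 to 6.72%), 21 were at the edge (2.80%, interval 1.84 to 4.24%) and 693 were far (92.3%, interval 90.1 to 94.0%). The KO antibody library gives the background of the same measurement: of 5024 peaks called in KO alone, 197 (3.92%, interval 3.42 to 4.49%) were inside a WT H3K4me3 peak. On this H3K4me3 list the intervals of the WT-only and KO-only shares overlap. On the KO H3K4me3 list, the shares were 3.33% and 1.81%, with separate intervals.

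The picture was different for peaks called in both genotypes. Of the 115 WT peaks counted as background, 62 were inside H3K4me3 (53.9%, interval 44.8 to 62.7%), in 62 H3K4me3 peaks (0.45% of that list), 1 was at the edge and 52 were far. Background therefore made up 62 of the 99 WT Tcf1 peaks inside H3K4me3 (62.6%) but only 52 of 745 far from it (6.98%). The share inside rests on weak H3K4me3 peaks: among H3K4me3 peaks with scores of at least 500, background made up 11 of 34 Tcf1 peaks inside (32.4%). When only KO peaks with scores of at least 100 were used to mark background, it made up 50 of 99 (50.5%).

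**Figure D1:**
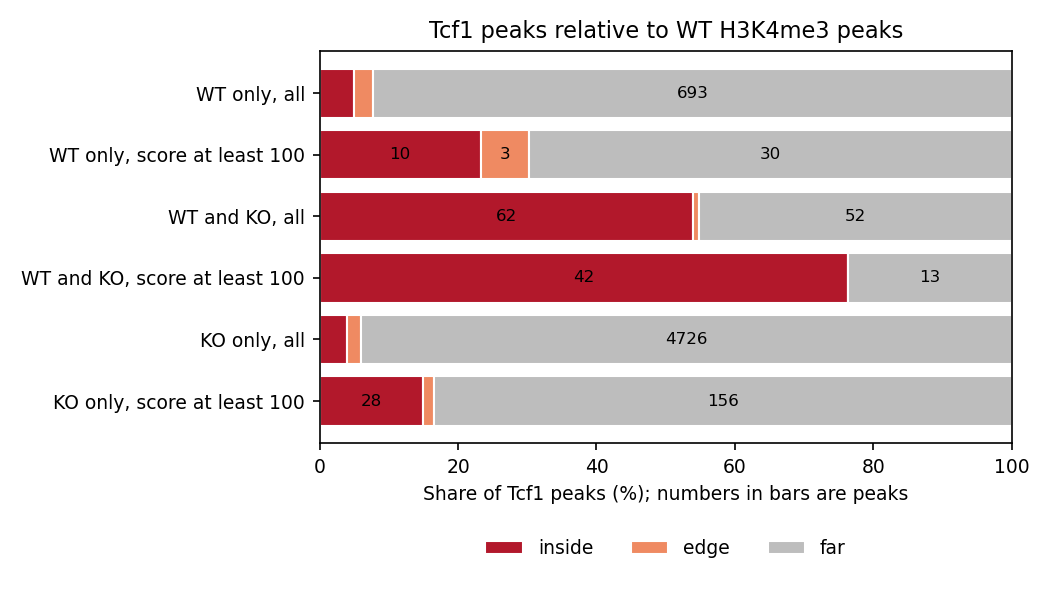
Share of Tcf1 peaks (x axis, %) inside, at the edge of (gap at most 5 kb) or far from a WT H3K4me3 peak, for peaks called in WT alone, in WT and KO, and in KO alone, with all peaks and with scores of at least 100. Peaks called in both genotypes are inside in 62 of 115 cases, and those called in WT alone in 37 of 751.

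Placement changed with the strength of the Tcf1 signal. Of the WT-only peaks that scored 200 or more, 7 of 16 were inside H3K4me3 (43.8%, interval 23.1 to 66.8%), and among those scoring 50 to 60, 13 of 447 were (2.91%, interval 1.71 to 4.91%). Peaks scoring 60 to 75 were inside in 10 of 186 cases, 75 to 100 in 4 of 75 and 100 to 200 in 3 of 27. The share also rose with score in the KO-only list, from 70 of 3020 at 50 to 60 to 26 of 179 (14.5%) at 100 to 200, and only 8 KO-only peaks reached 200, of which 2 were inside. At scores of at least 100, the WT-only share inside was 10 of 43 (23.3%, interval 13.2 to 37.7%) and the KO-only share was 28 of 187 (15.0%, interval 10.6 to 20.8%), again with overlapping intervals. Scores of separately called lists are not on one scale, so equal scores in WT and KO need not mean equal enrichment.

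**Figure D2:**
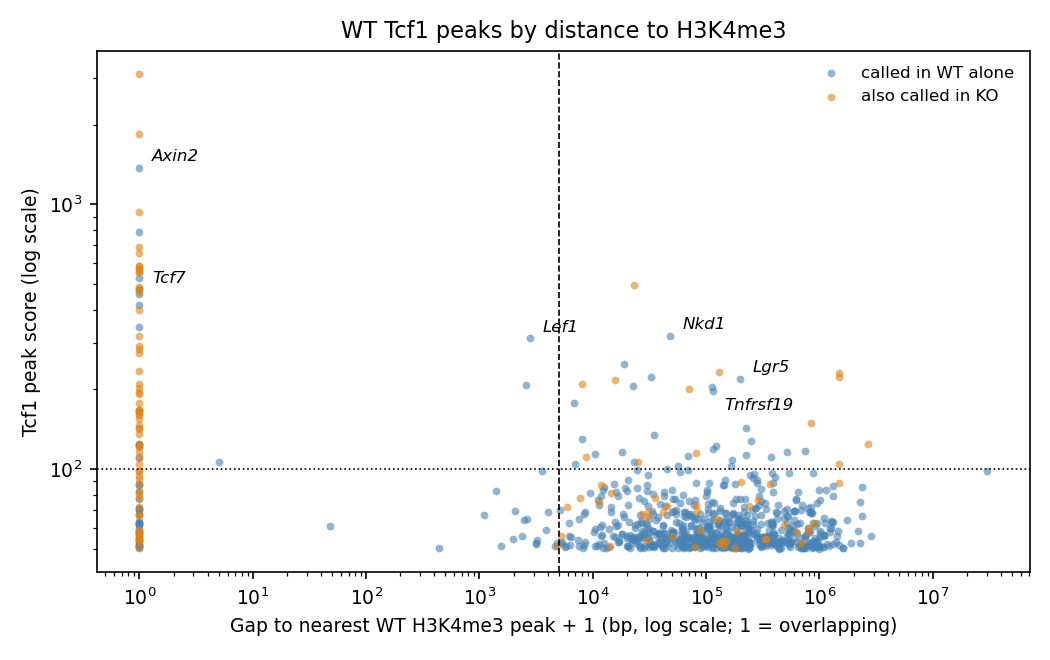
Each point is 1 WT Tcf1 peak, placed by its gap to the nearest WT H3K4me3 peak plus 1 bp (x axis, log scale) and its score (y axis, log scale); blue peaks were called in WT alone and orange peaks also in KO, the dashed line is 5 kb and the dotted line a score of 100, and peaks on sequences with no H3K4me3 peak are not drawn. Most blue points lie low and to the right of the dashed line, and Axin2 and Tcf7 lie at the left with scores of 1378 and 479.

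The H3K4me3 peaks that held a WT-only Tcf1 peak were 37 of 13771 (0.269%), 1 for each Tcf1 peak. They came in 2 kinds. In 25 of the 37 (67.6%, interval 51.5 to 80.4%) the H3K4me3 peak covered a protein-coding TSS, against 77% of all H3K4me3 peaks. These 25 held a median of 942 H3K4me3 tags over 2792 bp, above the medians of 470 tags and 2120 bp for all 10599 H3K4me3 peaks with a TSS. The other 12 held a median of 54 tags, below the 79 tags of all 3172 H3K4me3 peaks without a TSS.

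Ranked by tags, the WT-only set was spread to both ends of the H3K4me3 list. The list was divided by tags into 5 classes of like size. Of the 37 H3K4me3 peaks, 15 stood in the highest class (779 to 9716 tags) and 10 in the lowest (17 to 96 tags), with 4, 6 and 2 in the classes between, from low to high. The KO-only Tcf1 peaks overlapped 190 WT H3K4me3 peaks, of which 180 were in the lowest class and 0 in the highest, with a median of 34.5 tags. Of the 62 that held a background Tcf1 peak, 44 were in the lower 2 classes and 3 in the highest. The WT-only and KO-only Tcf1 peaks thus lay in H3K4me3 peaks of different size. Measured against the KO H3K4me3 list, 25 of 751 WT-only Tcf1 peaks were inside (3.33%, interval 2.26 to 4.87%) and 91 of 5024 KO-only ones (1.81%, interval 1.48 to 2.22%), so here the intervals do not overlap. The KO-only peaks lay in 88 H3K4me3 peaks of which 83 were in the lowest of 5 classes of that list and 0 in the highest. On the same KO list, 14 H3K4me3 peaks of the highest class held a WT-only Tcf1 peak. The KO Tcf1 peaks held a median of 14 tags and the WT Tcf1 peaks 23, and the part of depth and calling limits in this difference was not tested.

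**Figure D3:**
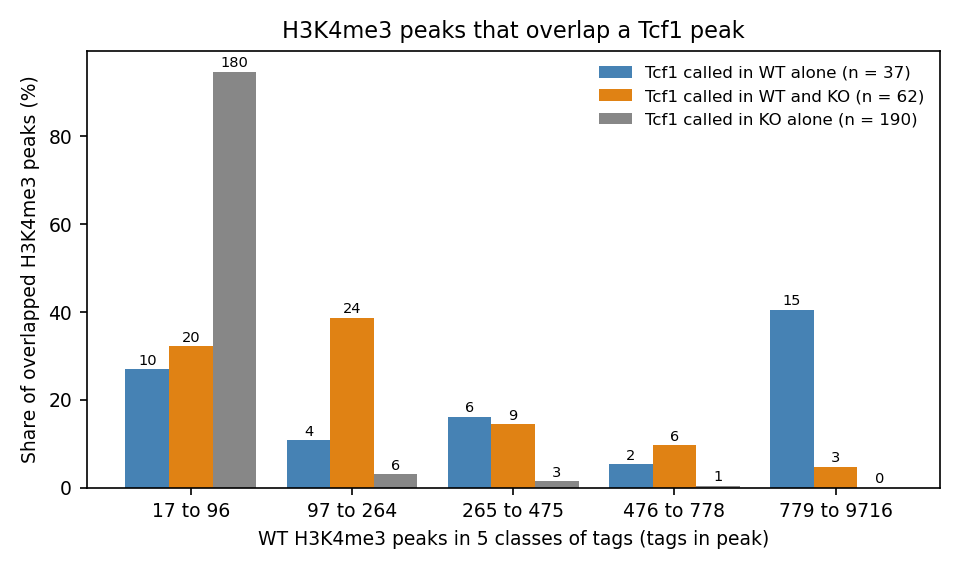
H3K4me3 peaks of WT that overlap a Tcf1 peak, divided into 5 classes of like size by H3K4me3 tags (x axis, range of tags in each class); bars give the share of each set (%) and the numbers above them count H3K4me3 peaks. Of the 37 with a WT-only Tcf1 peak 15 are in the highest class, and of the 190 with a KO-only Tcf1 peak 0 are.

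The mark itself was mostly still called in KO cells at these sites. Of the 37 H3K4me3 peaks, 24 overlapped an H3K4me3 peak of the KO list (64.9%, interval 48.8 to 78.2%), against 77.5% of all WT H3K4me3 peaks. With a TSS it was 22 of 25 (88.0%), the same share as the 88.0% of all H3K4me3 peaks with a TSS, and without one it was 2 of 12. The 13 not called in KO were weak, with 22 to 125 tags, while the 24 called in both held 98 to 2447 tags. Absence from the KO list at such low counts does not show that the mark was absent. The share also depends on how background is marked. When only KO Tcf1 peaks with scores of at least 100 marked it, 25 of 49 H3K4me3 peaks with a WT-only Tcf1 peak were called in KO (51.0%, interval 37.5 to 64.4%).

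Tag numbers at the 24 H3K4me3 peaks called in both genotypes followed those of the whole list. The median log2 ratio of KO over WT tags was 0.18, beside 0.25 over all 10669 H3K4me3 peaks called in both, and it was below 0 at 3 of 24 (12.5%) against 16.8% of the whole list. Those 3 were Axin2, Ism2 and Pwp1. These ratios compare 1 library with 1 library and follow the width of each called peak.

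Among WT-only Tcf1 peaks inside H3K4me3, the highest score belonged to a Wnt feedback gene. Axin2 encodes a scaffold of the complex that destroys beta-catenin and is a widely used reporter of Wnt signalling. Its WT Tcf1 peak (chr11:108920078-108921595) held 251 tags with a score of 1378 and a deposited FDR (false discovery rate) of 33.3%, the highest FDR among the 37 inside peaks, and no Tcf1 peak was called there in KO. An FDR limit of 20% therefore leaves this peak out. The H3K4me3 peak over it held 453 tags in WT and 247 in KO, and this was 1 of 3 ratios below 0. Centred on the median of all H3K4me3 peaks, its KO over WT log2 ratio was -1.13 (95% counting interval -1.35 to -0.90).

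Tcf7 itself carried both signals at its start. The Tcf1 peak (chr11:52282921-52283707) held 123 tags with a score of 479, and its summit, the position of highest enrichment, lay 6 bp from the nearest TSS. The H3K4me3 peak over it held 525 tags in WT and 535 in KO, a centred log2 ratio of -0.22 (interval -0.40 to -0.05). The mark was thus called at the Tcf7 start in cells whose genotype label is Tcf7-/-, and neither value measures the protein.

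The other strong WT-only peaks inside H3K4me3 lay at genes outside the Wnt lists. Cyb5r4, which encodes a cytochrome b5 reductase, held 154 Tcf1 tags (score 788; chr9:87021435-87022330) under 391 H3K4me3 tags in WT and 477 in KO. Zfp703, a zinc finger corepressor, held 109 Tcf1 tags (score 417; chr8:26976745-26977588) under 1503 H3K4me3 tags in WT and 1772 in KO. Both were called as H3K4me3 in the 2 genotypes at ratios near the median of all peaks.

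Among the remaining peaks with scores of at least 100, 2 genes with RIKEN names stood beside these. 1190007I07Rik held 132 Tcf1 tags (score 460; chr10:82622876-82623682) under 453 H3K4me3 tags in WT and 586 in KO. The peak over the start of 1810014B01Rik (chr10:86684977-86685834) held 135 Tcf1 tags (score 527) under 336 H3K4me3 tags in WT and 360 in KO. The shared start of Zfp142 and Bcs1l, the latter a chaperone of respiratory complex III, held 59 Tcf1 tags (score 123) under 491 H3K4me3 tags in WT and 768 in KO, the highest ratio of the 24 (centred log2 0.39, interval 0.23 to 0.56).

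The rest of that group lay under fewer H3K4me3 tags. Ism2, which encodes a secreted isthmin protein, held 53 Tcf1 tags (score 111; chr12:87299602-87300329) under 309 H3K4me3 tags in WT and 193 in KO, with a centred log2 ratio of -0.93 (interval -1.19 to -0.67). Fgf18, a fibroblast growth factor gene, held 85 Tcf1 tags (score 343; chr11:33147546-33148287) under an H3K4me3 peak of 118 tags that was not called in KO. The Tcf1 peak in ENSMUSG00000097307 (44 tags, score 124) lay under 35 H3K4me3 tags, also not called in KO.

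Below a score of 100, the Tcf1 signal was small and the H3K4me3 peaks were of 2 kinds. Of 27 such peaks, 15 lay under 433 to 2447 H3K4me3 tags and 12 under 22 to 125. All 27 inside H3K4me3 held a median of 33 Tcf1 tags under a median of 791 H3K4me3 tags, whereas the 10 at or above 100 held 116 Tcf1 tags under 422 H3K4me3 tags. Tbl1xr1, which encodes a subunit of the NCoR and SMRT corepressor complexes and binds beta-catenin, held 32 Tcf1 tags (score 77.1; chr3:22076674-22077109) under 1773 H3K4me3 tags in WT and 2045 in KO. Sh2b1, a signalling adaptor, held 52 Tcf1 tags (score 82.4) under 1292 H3K4me3 tags in WT and 1455 in KO. Prr5, a subunit of mTOR complex 2, held 42 Tcf1 tags (score 70.8) under 1386 and 1769 H3K4me3 tags.

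Other members of this weak group also lay at tall promoter marks. The peak by Nrbp1, a pseudokinase gene, held 40 Tcf1 tags (score 86.8) under 791 H3K4me3 tags in WT and 899 in KO. The start shared by Vps9d1 and Zfp276 held 43 Tcf1 tags (score 67.8) under 1285 and 1396 H3K4me3 tags, and the start of Prkrir (RefSeq Thap12) held 28 (score 63.7) under 942 and 1104. The tallest H3K4me3 peak of the 37, with 2447 tags in WT and 2605 in KO, held 37 Tcf1 tags at Gm10463, 3.28 kb from the TSS of Fosl2, which encodes a subunit of the AP-1 factor. Kmt2d, named after its values were seen, held 35 Tcf1 tags (score 51.8; chr15:98871008-98871560) under 2166 H3K4me3 tags in WT and 2414 in KO.

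The 12 weak peaks at low H3K4me3 included 3 of the higher scores. ENSMUSG00000082334 held 75 Tcf1 tags (score 87.7) under 125 H3K4me3 tags, and ENSMUSG00000086608 held 24 (score 71.0) under 36, neither H3K4me3 peak being called in KO. A small Tcf1 peak 67.0 kb from the TSS of Nkd1, a Wnt inhibitor that binds Dishevelled, held 32 tags (score 69.9; chr8:88453912-88454477) under 52 H3K4me3 tags, also not called in KO.

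**Figure D4:**
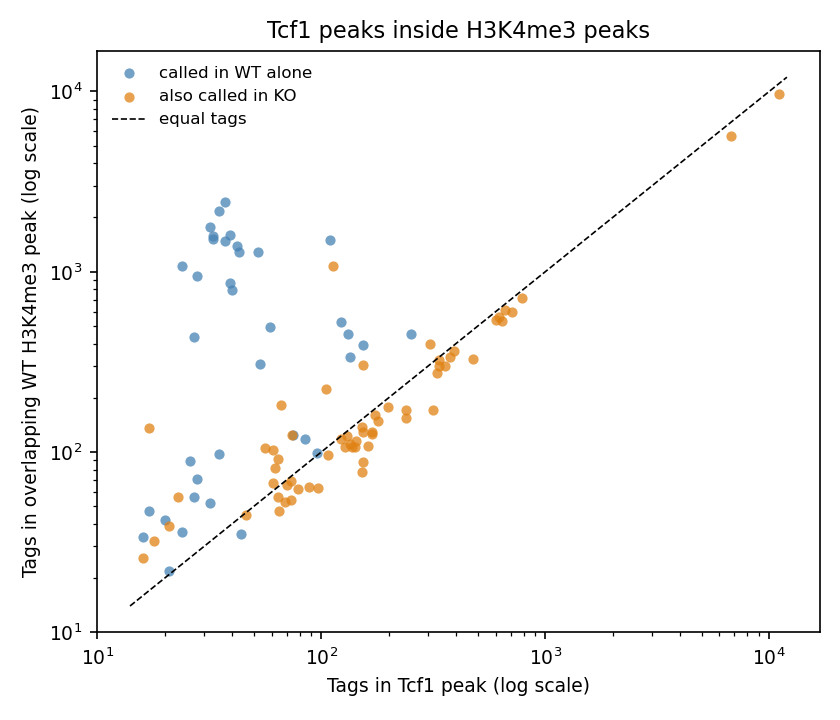
Tags in each WT Tcf1 peak inside H3K4me3 (x axis, log scale) against tags in the H3K4me3 peak it overlaps (y axis, log scale); the dashed line marks equal tags. Orange points, called also in KO, follow the line (46 of 62 on or below it), while 36 of 37 blue points, called in WT alone, lie above it.

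The shape of the 2 signals also set background peaks apart from WT-only peaks. The ratio of H3K4me3 tags to Tcf1 tags had a median of 0.896 at background sites, and 46 of 62 held no more tags than the Tcf1 peak. At WT-only sites the median ratio was 4.27, and 1 of 37 held no more. The summits of the 2 marks were a median of 15.5 bp apart at background sites and 330 bp at WT-only sites. The Tcf1 peak was at least 50% as wide as the H3K4me3 peak at 39 of 62 background and 6 of 37 WT-only sites.

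Background sites inside H3K4me3 were also seldom at gene starts. Of their 62 H3K4me3 peaks, 1 covered a protein-coding TSS and 13 were called in KO (21.0%, interval 12.7 to 32.6%). They held a median of 142.5 tags with the Tcf1 antibody in WT, 138 with the same antibody in KO and 125.5 with the H3K4me3 antibody in WT. These medians were close to each other across 2 antibodies and 2 genotypes, and what gives rise to them was not tested.

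Of the 5 background peaks of highest score inside H3K4me3, 4 had values of this kind and 1 did not. Over the ribosomal RNA locus Rn18s-rs5 (chr17:39842835-39848979) the Tcf1 antibody gave 11097 tags in WT and 11235 in KO, the H3K4me3 antibody 9716 in WT, and the fold enrichment of the Tcf1 peak was 2.01. At ENSMUSG00000095280 (chr14:19415494-19419722) the values were 6745, 5692 and 5674, with a fold enrichment of 1.83. Neither of these H3K4me3 peaks was called in KO, nor were those at Filip1l (642, 708 and 532 tags) and ENSMUSG00000081392 (790, 803 and 715 tags). The exception was ENSMUSG00000096200, where 153 Tcf1 tags in WT, 52 in KO and 88 H3K4me3 tags were counted, with a fold enrichment of 27.5, and whose H3K4me3 peak was called in KO too.

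At gene starts the 2 signals differed in their signed offsets from the TSS, here the known start nearest the Tcf1 summit. The summit of a WT-only Tcf1 peak lay within 1 kb of a protein-coding TSS for 22 of 37 peaks inside H3K4me3 (59.5%, interval 43.5 to 73.7%), for 2 of 21 at the edge and for 14 of 678 far peaks on placed chromosomes (2.06%, interval 1.23 to 3.44%). For background peaks inside H3K4me3 it was 0 of 61. Because 77% of all WT H3K4me3 peaks cover a protein-coding TSS, the WT-only shares follow in part from how the classes were defined. At the 22 starts the signed offset of the Tcf1 summit had a median of 2 bp, with 11 upstream, 11 downstream and 14 within 250 bp. Without sign, the median distance from the TSS was 211.5 bp for Tcf1 and 265 bp for H3K4me3. The H3K4me3 summit stood at a median of 220 bp downstream, on the downstream side at 16 of 22. Over all 10560 H3K4me3 peaks near a TSS the median was 237 bp downstream, and 90.8% were on that side. Those offsets were taken from the start nearest the H3K4me3 summit. They are therefore not like for like with the offsets at the 22 starts.

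**Figure D5:**
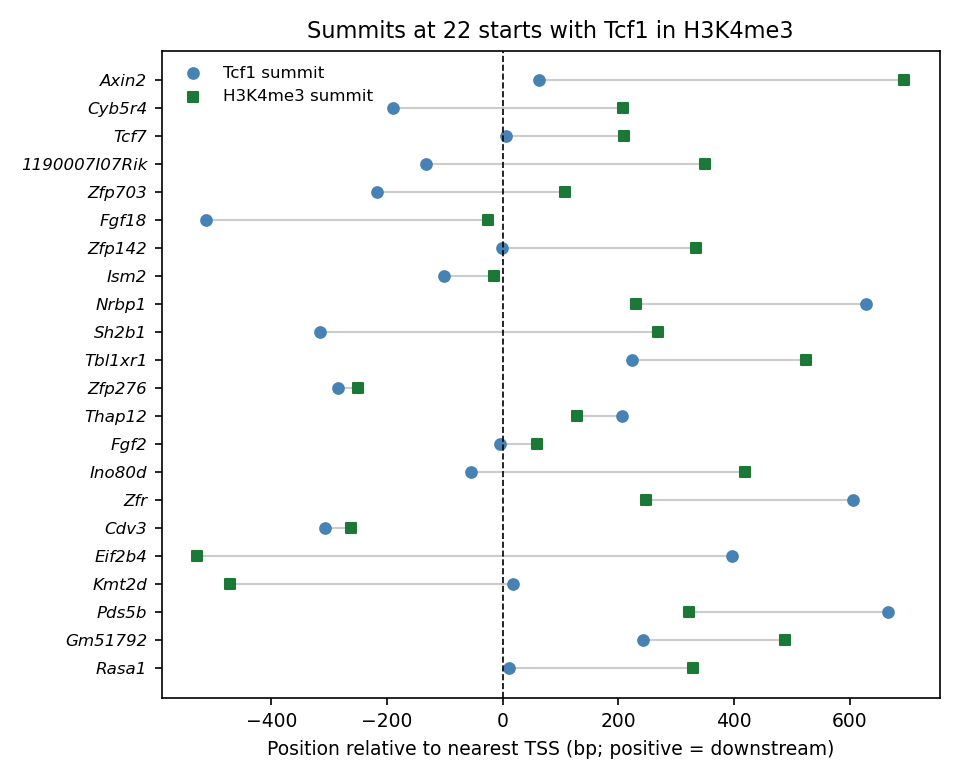
Summit of the Tcf1 peak (circles) and of the H3K4me3 peak (squares) relative to the nearest TSS (x axis, bp, positive downstream) at the 22 starts with a WT-only Tcf1 peak inside H3K4me3, from the highest Tcf1 score (top, Axin2) to the lowest. The TSS is the one nearest the Tcf1 summit. Tcf1 summits scatter from -513 to 665 bp with a median signed offset of 2 bp, and that of H3K4me3 summits is 220 bp.

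The 4 strongest starts show the offset gene by gene. At Axin2 the Tcf1 summit was 63 bp and the H3K4me3 summit 694 bp downstream of the TSS. Values at Cyb5r4 were -190 and 208 bp, at Tcf7 6 and 210 bp, and at 1190007I07Rik -133 and 350 bp. In each of these the Tcf1 summit lay upstream of the H3K4me3 summit. Because the TSS was chosen by the Tcf1 summit, small Tcf1 offsets follow in part from that choice. Measured from the start in the promoter table, the Tcf1 summit at Tcf7 lay at -363 bp.

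The edge class held 21 WT-only peaks, beside a marked region rather than in it. Of KO-only peaks, 101 of 5024 were at the edge (2.01%, interval 1.66 to 2.44%). That interval overlaps the WT-only one of 1.84 to 4.24%. The nearest H3K4me3 peak held a median of 268 tags, covered a protein-coding TSS for 15 of 21 and was called in KO for 15 of 21 (71.4% each). Over all WT H3K4me3 peaks these shares were 77.0% and 77.5%, and for the far class they were 65.4% and 65.2%. The gaps ran from 4 bp to 4.85 kb, with a median of 2.56 kb. Tcf1 tags had a median of 30, between those of inside (37) and far peaks (21).

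Lef1, which encodes the closest relative of Tcf1, led the edge class. Its Tcf1 peak (chr3:131105576-131106506) held 113 tags with a score of 312, was not called in KO and lay 4.21 kb from the TSS. The gap to the H3K4me3 peak over the Lef1 start was 2.79 kb, and that H3K4me3 peak held 1463 tags in WT and 1437 in KO. The Tcf1 signal was thus beside a tall promoter mark, not within it.

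The next edge peaks were smaller. By Zc3hc1, a gene for a zinc finger nuclear protein, the peak held 58 tags (score 209; chr6:30394191-30394664) at 2.56 kb from an H3K4me3 peak of 206 tags in WT and 247 in KO. At Coq2, an enzyme of ubiquinone synthesis, the peak held 36 tags (score 106; chr5:100674893-100675393) 35 bp from the TSS and only 4 bp outside an H3K4me3 peak of 502 tags in WT and 648 in KO. Peaks near ENSMUSG00000096592 (65 tags), ENSMUSG00000073164 (22 tags) and Ctnnd2, a delta-catenin gene (24 tags), had scores of 98.5, 82.3 and 69.3. Just under the 5 kb limit lay peaks by Atp9a (gap 4.68 kb, 21 tags) and Kif7 (4.85 kb, 20 tags), and just over it those by ENSMUSG00000094971 (5.09 kb, 21 tags) and Chd2 (5.19 kb, 30 tags).

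Far peaks were the bulk of the WT-only Tcf1 peaks and were mostly very distant from the mark. KO-only peaks were far in a like share, 4726 of 5024 (94.1%, interval 93.4 to 94.7%). That interval overlaps the WT-only one of 90.1 to 94.0%, so the far share does not set WT-only peaks apart from KO-only ones. Over the 679 WT-only far peaks with an H3K4me3 peak on the same sequence, the median gap was 140 kb. Of all 693, 402 had a gap over 100 kb and 63 a gap of at most 20 kb. The lists placed 230 of these 693 inside a gene feature, 264 upstream and 176 downstream of one. Their scores were low, with a median of 56.7 and 30 of 693 at 100 or more, and 74 of 693 had an FDR of at most 10%.

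The WT-only far peaks of highest score again included Wnt feedback genes. Nkd1 held a peak in its gene body (chr8:88570515-88571105) with 89 tags and a score of 320, at 48.4 kb from the H3K4me3 peak over its start, which held 163 tags in WT and 122 in KO. At Lgr5, the R-spondin receptor, 54 tags (score 220; chr10:115586337-115586973) lay 1.16 kb from a TSS without H3K4me3, and the nearest H3K4me3 peak was 199 kb away. At Tnfrsf19, a receptor of the TNF family known as a Wnt target, 60 tags (score 197; chr14:61056398-61057023) lay 9.84 kb from an unmarked TSS and 116 kb from H3K4me3. Tcf1 peaks thus stood at Wnt genes with a marked start and at Wnt genes with none.

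The remaining far peaks of highest score had little in common. Peaks by Dhx34, an RNA helicase (85 tags, score 250, gap 19.0 kb), Pdzk1, a scaffold protein (67 tags, score 222, gap 32.8 kb), Pde5a, the cGMP phosphodiesterase (57 tags, score 178, gap 6.80 kb), and ENSMUSG00000085329 (61 tags, score 205, gap 112 kb) had between 57 and 85 tags. In contrast, the peak by 2010315B03Rik held 1648 tags at a fold enrichment of 2.56. The other 2 lay on unplaced contigs with 749 and 994 tags and no gene feature.

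Genes named in the feature column followed the placement of the peaks. WT-only peaks inside H3K4me3 named 48 features, of which 31 matched a protein-coding gene with a known start, and 28 of these had H3K4me3 within 1 kb of the TSS (90.3%, interval 75.1 to 96.7%). For edge peaks it was 14 of 16 (87.5%), out of 27 features. Far peaks named 765 features, and 183 of 386 such genes were marked (47.4%, interval 42.5 to 52.4%), below the 53.6% of all 21737 protein-coding genes, which lies outside that interval. An inside peak lies in H3K4me3 by definition, so the first of these shares follows in part from the class.

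Seen from the genes, marked and unmarked promoters lay within 50 kb of a WT-only Tcf1 peak in like shares, with overlapping intervals. This held for 446 of 11651 marked genes (3.83%, interval 3.49 to 4.19%) and for 396 of 10086 unmarked genes (3.93%, interval 3.56 to 4.32%), or 3.87% of all. A WT-only Tcf1 summit within 1 kb of the TSS was found for 40 genes (0.184%), of which 27 were marked (0.232%, interval 0.159 to 0.337%) and 13 were not (0.129%, interval 0.0753 to 0.220%).

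Gene lists, chosen with earlier results of these data in view, were then read by their counts. Of 18 Wnt feedback and target genes, 13 had a marked start, and 5 were within 50 kb of a WT-only Tcf1 peak or held one (background 3.87%). They were Axin2 (inside H3K4me3) and Nkd1, Lgr5, Tnfrsf19 and Rnf43 (far), and 3 of the 5 were marked. Rnf43, a ligase that removes Wnt receptors from the cell surface, had 601 H3K4me3 tags at its start, with its Tcf1 peak of 30 tags 45.5 kb away at the start of Hsf5. Of 13 measured Tcf/Lef factors and partners, 11 were marked and 2 were near Tcf1, Tcf7 and Lef1. Ctnnb1, the beta-catenin gene, and Tle3, a Groucho corepressor, had 1257 and 2706 H3K4me3 tags and no WT-only Tcf1 peak within 50 kb.

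Genes that carry out NK cell function differed in the mark, beside 53.6% of all genes. H3K4me3 lay at 18 of 18 cytotoxic effector genes, such as Prf1 (perforin, 1516 tags) and Nkg7 (1879 tags), and 0 of 18 lay within 50 kb of a WT-only Tcf1 peak. Of 32 NK receptor and adhesion genes, 22 were marked and 0 were near Tcf1, and of 10 homing receptor genes 4 were marked and 0 were near. With 3.87% of all genes near a peak, counts of 0 in lists of this size are not set apart from that background.

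Granzyme and regulator genes had a few distant peaks, to be read beside 53.6% of all genes marked and 3.87% near a WT-only Tcf1 peak. Of 10 granzyme genes, 5 were marked, and Gzmb (1022 H3K4me3 tags) and Gzmc (353 tags), serine proteases of cytotoxic granules, shared 1 Tcf1 peak (chr14:56287808-56288339) of 36 tags and score 55.1, 25.3 kb from the nearest H3K4me3 peak. Of 33 NK cell transcription factor genes, 32 were marked and 3 were near a far Tcf1 peak. These were Tbx21, the gene of T-bet (2092 H3K4me3 tags at its start, 25 Tcf1 tags), Zeb2, a factor of late NK maturation (1416 and 31 tags), and Prdm1, the gene of Blimp-1 (964 and 37 tags).

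Against the same 53.6% and 3.87% of all genes, 19 of 20 cytokine receptor and signalling genes were marked and 1 was near Tcf1. That was Cish, an inhibitor of cytokine signalling, with 1303 H3K4me3 tags and an edge peak of 50 Tcf1 tags 31.4 kb away at Hemk1. Among 13 T cell genes, 6 were marked, and the 2 near Tcf1 were both unmarked, Cd5 (27 tags in the gene) and Foxp3 (33 tags, 22.8 kb away). All 12 housekeeping genes were marked, up to the 2707 tags of Actb, and 0 were near Tcf1.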

How the data were processed

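Peaks were called per library. Tools named in the submitters' processing notes are MACS 1.4 and Bowtie2 2.1.0, with builds mm10, GRCm38 and GRCh37 in no stated role. Positions were read as GRCm38/mm10. Calling settings and the control are not given in the sources used here, and input libraries were not analysed here. Per the file headers, each deposited row gives the count of tags, the score (10 times the negative log10 p), the fold enrichment as a ratio and the false discovery rate (FDR) in percent. Rows were reduced to distinct peaks, and starts, counted from 0 by the authors, were converted to count from 1.

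Overlap needed at least 1 bp. TSS came from RefSeq (GRCm38.p6) and the 5′ ends of deposited features. The table gave 21887 protein-coding genes, of which 150 with no known strand were left out. A gene was marked if H3K4me3 came within 1 kb of a TSS. Tag ratios of H3K4me3 peaks, KO over WT, assumed Poisson counts, and PCR copies could not be removed.

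Members, lists and tests were chosen with earlier results of these data known. Named were all WT-only inside peaks with scores of at least 100 and the next 10, the 6 edge, 10 far and 5 background inside peaks of highest score, list members within 50 kb of a WT-only peak, and the 4 peaks nearest 5 kb. Kmt2d, Sp9, Pwp1, Ctnnb1, Tle3, Prf1, Nkg7, Actb, Cd3d, Cd3e, Cd14, Cebpa, Klf1 and Epor fall outside this rule and were named after their values were seen. Alternatives covered score and FDR limits, summit or whole-peak overlap, the KO flag, chromosomes and edge distance. The code that places peaks was run on simulated peaks of known class and returned each to its class, which checks the code alone. Python 3.11.15, pandas 2.3.3, numpy 2.4.6, scipy 1.17.1 and matplotlib 3.10.9 were used.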

Additional observations from a re-analysis of the deposited data

How the results depend on the processing

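Of 67 recomputed values, 45 stayed near the reported ones and 22 moved. A share counted as near when it lay within the 95% interval of the reported share, and gene counts were judged by fold change. With Tcf1 scores of at least 100, WT-only peaks were 23.3% inside, 6.98% at the edge and 69.8% far, background peaks were 76.4% inside, 0.0726% of H3K4me3 peaks held a WT-only Tcf1 peak, 80% of those were called in KO, and 12 genes were named. With an FDR of at most 20% the WT-only shares were 7.76, 4.31 and 87.9%, 0.131% of H3K4me3 peaks held one and 22 genes were named. With H3K4me3 scores of at least 500, 3.06% of WT-only peaks were inside and 95.1% far, background peaks inside fell from 53.9% to 9.57%, 100% of the overlapped H3K4me3 peaks were called in KO and 29 genes were named. Flagging only by KO peaks with scores of at least 100 gave 64.1% of background peaks inside. That setting also gave 49 WT-only peaks inside, 62 named genes and 51.0% of the overlapped H3K4me3 peaks called in KO, all counted as near. An edge of 2 kb gave 0.932% at the edge and 94.1% far, and an edge of 10 kb gave 5.59 and 89.5%. Summit or whole-peak overlap, an H3K4me3 FDR of at most 1%, a KO flag within 1 kb and autosomes with X alone moved none of the values. No paired analysis was possible because each group held 1 library.

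Each group held 1 library, and library depth is unknown. Far peaks held a median of 21 tags and scored near the calling limit, the lists give no tags outside called peaks, and tags in KO at sites missing from the KO Tcf1 list are unknown. The median FDR of WT-only peaks was 20.2% inside, 21.9% at the edge and 27.2% far, the lowest was 3.85%, and 74 of 693 far peaks had at most 10%. The peak at Axin2, at 33.3%, is left out by the limit of 20%. Background made up 62.6% of inside peaks, but 32.4% with H3K4me3 scores of at least 500 and 50.5% with the KO score limit.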
